A study of Mus musculus with 2 samples.

Results

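The 10 genes described here encode cyclic nucleotide phosphodiesterases expressed in the mouse heart: Pde1a, Pde1c, Pde2a, Pde3a, Pde3b, Pde4a, Pde4b, Pde4d, Pde5a and Pde8a. They were taken by name from a list and looked up among the 43346 gene identifiers of the deposited tables. By gene identifier 9 of the 10 were found under the GENCODE M21 annotation. Pde2a was found through its transcripts, 2 of which the tables place in the entry ENSMUSG00000030653.12. M21 gives that identifier to Gm45837, a readthrough gene on the same strand. Its coding sequence covers 97.1% of the coding positions of Pde2a-201, so the value given for Pde2a is that of the locus.

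The libraries held poly(A)-selected RNA longer than 200 nucleotides from the heart of C57BL/6J mice, an inbred strain, aged 8 weeks and without a stated treatment. There were 2 libraries of 1 group, labelled biological replicates 1 and 2, with separate biosamples and a shared donor record, and each was labelled a pool of male and female littermates. The labels do not say whether the libraries came from separate animals. With 1 group there is no contrast of conditions, and an exact sign test on 2 values cannot go below p = 0.5.

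The libraries stood apart in several respects. A gene is called here where an exact binomial test of its counts in the 2 libraries gave an adjusted p under 0.05 and the fold was at least 2. Xist, transcribed from the inactive X chromosome of females, had 13725 counts in the first library against 13 in the second. The summed counts of 4 Y-linked genes were 0 and 2916, which goes against the label of mixed sex. Every difference between the libraries below is therefore also a difference between a library with Xist and one with Y-linked transcripts, and the effect of sex cannot be told apart from other differences between them. Over all genes tested 11.7% were called, 8.18% higher in replicate 2 and 3.53% higher in replicate 1. Of the cell type marker lists, all 8 cardiomyocyte markers were detected in both libraries and none was called different. That does not make them alike, since 2 of the 8 had ratios toward replicate 2 and 6 toward replicate 1. Under the fold limit, Tnni3 was 1.90-fold higher in replicate 2 and Ryr2 1.67-fold higher in replicate 1. All 7 lung epithelium markers were higher in replicate 2 (summed TPM 0.32 and 2160, with Sftpb, Sftpa1, Sftpd and Scgb3a2 at 0 in replicate 1). The same held for all 6 red blood cell genes (7592 and 94906), 6 of 8 adipocyte markers (124 and 475) and 4 of 8 macrophage and leukocyte markers (159 and 317). Of 8 markers each, 1 smooth muscle marker was higher in replicate 2, 1 fibroblast marker was higher in replicate 1, no endothelial marker was called, and of the neuronal and glial markers 1 was called in each direction. TPM is a level divided by transcript length and set to a common sum per library. Totals were 57464573 and 62912053 estimated counts, and intervals below cover counting error only. In these bulk samples fewer cells of a type and less RNA per cell cannot be told apart. Each level is therefore given in each library.

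Phosphodiesterases end cyclic nucleotide signals by hydrolysing cAMP and cGMP to the inactive 5′ monophosphates. In heart muscle cAMP, made after beta-adrenergic stimulation, raises the rate and force of contraction and the speed of relaxation, while cGMP follows natriuretic peptides and nitric oxide. Phosphodiesterases bound near channels, calcium pumps and anchoring proteins keep these signals local. The families differ in substrate and control: PDE4 and PDE8 hydrolyse cAMP, PDE5 hydrolyses cGMP, and PDE1, PDE2 and PDE3 hydrolyse both.

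The feature that all 10 share is the metal-binding signature of the catalytic site, a histidine, an aspartate, any 2 residues, a histidine, any 4 residues and an asparagine. A search of the coding sequences for it, with glutamine also allowed at the last place, found it in 10 of the 10 genes. Over 21872 protein-coding genes of M21, 0.224% encode it in any transcript. Those are 49 genes, of which 28, Gm45837 among them, are not in the phosphodiesterase lists. The pattern alone therefore does not mark a phosphodiesterase. Of the other 14 phosphodiesterase genes listed, 11 encode it, and Pde6d, Pde6g and Pde6h do not. The 30 coding bases are shown because, within these 10 genes, they mark the transcripts that can supply a catalytic site, which the levels below depend on. They are printed 5′ to 3′ on the coding strand, from M21 on GRCm38, with the codons of the 2 histidines, the aspartate and the asparagine in capitals.
Pde1a: CATGATtatgagCACacaggaacaacaAAC
Pde1c: CATGACtatgaaCATactggaactacaAAC
Pde2a: CATGACctggacCACagaggcacaaacAAC
Pde3a: CATGACtacgatCACccagggaggacaAAT
Pde3b: CACGATtacgatCACccaggaagaacaAAT
Pde4a: CATGACgtggacCACcctggcgtctccAAC
Pde4b: CATGATgtcgatCATcctggagtctccAAT
Pde4d: CATGATgtggacCATcctggggtgtcaAAT
Pde5a: CATGACttggatCATcgtggcgtgaacAAC
Pde8a: CATGACgtggatCACcctgggagaaccAAC

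These windows lie in coding exons at chr2:79887861-79887890 (minus strand) for Pde1a, chr6:56158947-56158976 (minus) for Pde1c, chr7:101508482-101508511 (plus) for Pde2a, chr6:141487899-141487928 (plus) for Pde3a and chr7:114526921-114526950 (plus) for Pde3b. For the rest they lie on the plus strand at chr9:21204375-21204404 for Pde4a, chr4:102599694-102599723 for Pde4b, chr13:109939313-109939342 for Pde4d, chr3:122824966-122824995 for Pde5a and chr7:81324067-81324096 for Pde8a. Within a family all 10 codons had the same meaning, although the bases differed: Pde4a and Pde4b shared 24 of 30 bases, Pde4b and Pde4d 25, Pde1a and Pde1c 25, and Pde3a and Pde3b 26. Across families, Pde2a and Pde5a, which both carry regulatory GAF domains, encoded the same residue at 9 of 10 codons. Pde8a did so with Pde3a and with Pde3b at 9, and with the PDE4 genes at 8. Pde1a and Pde5a matched at 5 codons and 16 bases. The search fixed the histidines and the aspartate, and all 10 windows end in asparagine. Those codons therefore have the same meaning in every pair, and only the others were free to differ.

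**Figure D1:**
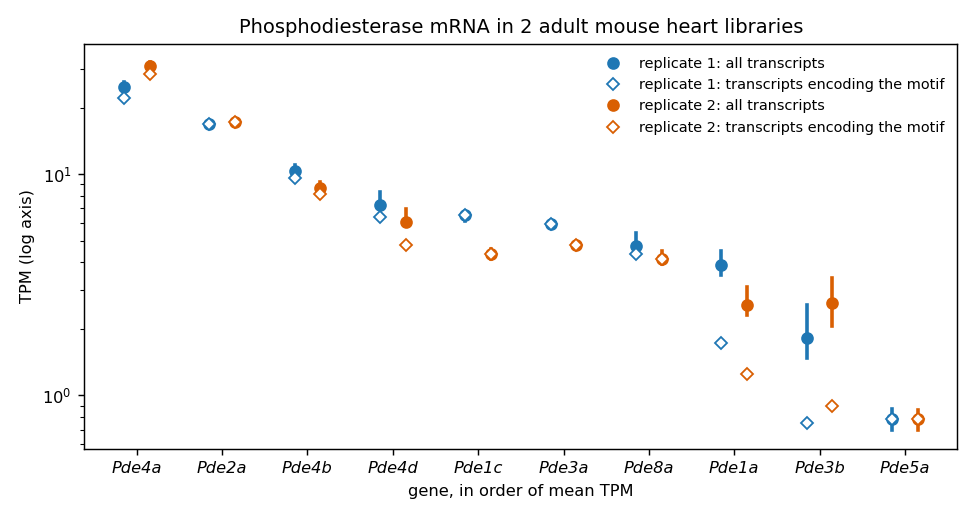
TPM (vertical, log axis) of the 10 genes in replicate 1 (blue) and replicate 2 (orange). Filled circles are all transcripts of a gene, with the deposited TPM bounds (level not stated) as bars, and open diamonds are the transcripts that encode the catalytic signature. Pde4a was highest at 24.8 and 30.9 TPM and Pde5a lowest at 0.78 in both, and the diamonds fall well below the circles for Pde1a and Pde3b.

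The cAMP-specific PDE4 family supplied the most abundant transcript. Pde4a (ENSMUSG00000032177.12, chr9:21165714-21213248 on GRCm38) stood at 24.8 and 30.9 TPM in replicates 1 and 2, a mean of 27.8 ± 4.29 (SD, n = 2), from 6127 and 7938 counts. Pde4b (ENSMUSG00000028525.12, chr4:102087543-102607259), whose enzyme is known to act near L-type calcium channels, stood at 10.4 and 8.62 TPM (9.50 ± 1.24), from 2436 and 2108 counts. Pde4d (ENSMUSG00000021699.13, chr13:108449948-109953461), whose enzyme is found with the ryanodine receptor and beta-adrenergic receptors, stood at 7.28 and 6.07 TPM (6.68 ± 0.856), from 1370 and 1038 counts. The order Pde4a, Pde4b, Pde4d was the same in both libraries, and the ranges of the 3 genes did not overlap. Pde4a exceeded Pde4b by a log2 ratio of 1.55 ± 0.41 and Pde4d lay below Pde4a by -2.06 ± 0.41. The log2 ratio of Pde4d to Pde4b was -0.51 in both libraries.

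Pde8a (ENSMUSG00000025584.13, chr7:81213596-81334533) encodes a cAMP-specific enzyme of high affinity that the general inhibitor IBMX does not block. It stood at 4.76 and 4.13 TPM (4.45 ± 0.445), from 999 and 978 counts. That was the seventh level among the 10 genes, above Pde1a, Pde3b and Pde5a in both libraries.

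Of the enzymes that hydrolyse both nucleotides, the Pde2a locus led. PDE2A is stimulated by cGMP and then degrades cAMP, so it couples the signals. Its entry (chr7:101421691-101512827 for Pde2a in M21) stood at 16.9 and 17.2 TPM (17.0 ± 0.233), from 4216 and 4536 counts, second among the 10 in both libraries. In TPM the libraries differed less here than for any other of the genes above 1 TPM.

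The PDE1 enzymes are switched on by calcium and calmodulin. Pde1c (ENSMUSG00000004347.12, chromosome 6) stood at 6.56 and 4.37 TPM (5.47 ± 1.55), from 2391 and 1761 counts. Pde1a (ENSMUSG00000059173.15, chr2:79834453-80129458) stood at 3.88 and 2.57 TPM (3.23 ± 0.926), from 443 and 359 counts. Both were lower in replicate 2, and their log2 ratio hardly moved, at 0.76 ± 0.01.

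The PDE3 enzymes hydrolyse cAMP and are inhibited by cGMP, and milrinone, an inotropic drug, acts on them. Pde3a (ENSMUSG00000041741.9, chromosome 6), known to act on the pool of cAMP at the sarcoplasmic reticulum, stood at 5.94 and 4.77 TPM (5.36 ± 0.827), from 3922 and 3323 counts. Pde3b (ENSMUSG00000030671.8, chr7:114415281-114539251), known for insulin signalling in fat and for its complex with PI3K gamma in heart, stood at 1.82 and 2.61 TPM (2.22 ± 0.559), from 333 and 432 counts. Pde3a exceeded Pde3b in both libraries, by log2 ratios of 1.71 and 0.87. Adipocyte markers summed to 124 TPM in replicate 1 and 475 in replicate 2, the direction in which Pde3b differed in TPM, and their part in it was not tested.

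Pde5a (ENSMUSG00000053965.6, chr3:122728947-122859374), which encodes the cGMP-specific target of sildenafil, was the lowest. It stood at 0.78 TPM in both libraries, from 318 and 335 counts over a transcript of 6728 nucleotides. The other 9 genes were at 1 TPM or more in both libraries. Pde2a exceeded Pde5a by a log2 ratio of 4.45 ± 0.02, a 21.8-fold difference, and Pde5a lay below Pde8a by -2.51 ± 0.14.

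In order of mean level the genes ran Pde4a, Pde2a, Pde4b, Pde4d, Pde1c, Pde3a, Pde8a, Pde1a, Pde3b, Pde5a. Neighbours whose ranges over the libraries overlapped were Pde4d and Pde1c, Pde1c and Pde3a, and Pde1a and Pde3b. Within each library Pde4d was above Pde1c (7.28 against 6.56 and 6.07 against 4.37 TPM), whereas the order of the other 2 pairs differed between the libraries. The other 6 neighbouring pairs did not overlap, although Pde3a and Pde8a were separated only by 4.77 against 4.76 TPM. In replicate 2 alone Pde3a stood above Pde1c and Pde3b above Pde1a, so 6 of the 10 places were kept. Among 10677 protein-coding genes at 1 TPM or more in both libraries, Pde4a lay at percentile 81.8 and 82.8. Pde2a lay at 74.0 and 70.8, Pde4d near the middle at 50.3 and 41.0, and Pde3b at 10.2 and 16.8.

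Summed over the 10 genes the level was 83.1 TPM in replicate 1 and 82.0 TPM in replicate 2. The 4 cAMP-specific genes held 58.7 ± 2.66% of that sum (56.8% and 60.6%), and the 5 genes for enzymes of both substrates held 40.3 ± 2.67% (42.2% and 38.4%). Pde5a, the only cGMP-specific gene of the 10, held 0.939% and 0.951%. Pde7a, Pde7b and Pde9a, described below, are outside that sum. By counts, which are not divided by length, the cAMP-specific share was 50.7%. TPM also depends on the other RNA in a library: mitochondrial genes and their chromosome 1 copies held 61.9% and 44.1% of TPM. With those left out and TPM rescaled, the 10 genes summed to 218 and 147 TPM, and Pde4a stood at 65.1 and 55.2, higher in replicate 1.

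**Figure D2:**
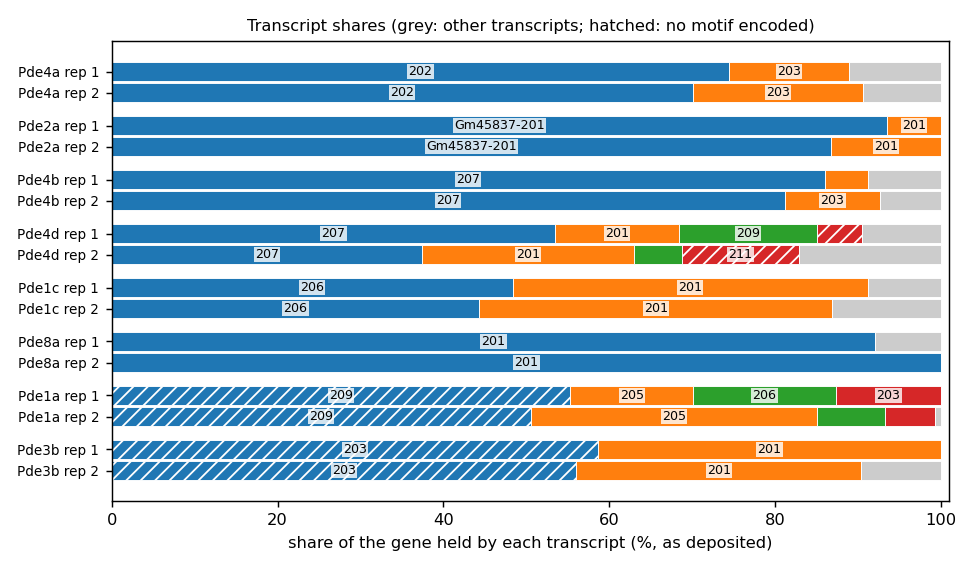
Share of each gene held by each transcript (percent, horizontal) in replicates 1 and 2, for the 8 genes with more than 1 expressed transcript. Numbers are the transcript suffix, hatching marks transcripts without the catalytic signature and grey the transcripts below 10% in both libraries. The leading transcript was the same in both libraries for each gene, and for Pde1a and Pde3b it is hatched.

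The transcript tables list 68 transcripts for the 10 genes, of which 46 are annotated as protein coding and 45 encode the signature. Pde3a and Pde5a have 1 each. The other 8 genes had at least 2 expressed transcripts, and in all 8 the leading transcript was the same in both libraries. Of 8185 genes averaging 1 TPM or more, with several expressed transcripts, 83.9% did the same. The libraries had the same leader in 7 of the 8 by the deposited posterior mean, in 7 by counts and in 7 among coding transcripts only. By counts the leader of Pde1a and of Pde3b was another transcript than by TPM.

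In the PDE4 family a long and a short class of enzyme arise from separate start sites, differ in their N-terminal ends, which direct them to different places, and share the catalytic part. The first 30 coding bases of the main PDE4 transcripts are shown because they tell these transcripts apart, with the start codon in capitals.
Pde4a-202: ATGgagcctccggccgccccctcggagagg
Pde4a-203: ATGcgctccagtgcagcaccccgggcccgg
Pde4b-207: ATGacagcaaaaaattctccaaaagaattt
Pde4b-203: ATGaaggagcaagggggcaccgtcagtggc
Pde4d-207: ATGaaggagcagccctcatgtgcgggcacc
Pde4d-201: ATGagcattataatgaagccaagatccagg
Pde4d-209: ATGgagagggacacttgtgatgtactctct

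Pde4a-202, of 844 codons with its first coding bases at chr9:21165928-21165957, held 74.5% of Pde4a in replicate 1 and 70.1% in replicate 2. Pde4a-203, of 787 codons and starting at chr9:21184418-21184447, held 14.5% and 20.5%, or 3.59 and 6.33 TPM. The start ends are distinct, since the first 305 coding bases of Pde4a-202 and the first 134 of Pde4a-203 are not coding in the other. Pde4b-207, of 721 codons (chr4:102255221-102255250), held 86.0% and 81.2% of Pde4b. Pde4b-203, of 564 codons (chr4:102570648-102570677), held 5.20% and 11.5%, from 85.8 and 167 counts. In both of these pairs the transcript with fewer codons held the smaller share in both libraries. Beyond their start ends Pde4a-202 and Pde4a-203 share all coding bases, and which class of enzyme each belongs to was not determined.

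In Pde4d the leader was instead the transcript with the fewest codons of the 3 main coding transcripts. Pde4d-207, of 584 codons (chr13:109903441-109903470), led with 53.5% in replicate 1 and 37.4% in replicate 2, from 973 and 597 counts with posterior SDs of 15.2 and 13.9. In nucleotides it is the longest of the 3, at 4207, and its annotated 3′ end lies at chr13:109953461. Pde4d-201 and Pde4d-209, of 2167 and 2554 nucleotides, both end at chr13:109951474. The part of this longer 3′ end in the share of Pde4d-207 was not tested. Pde4d-201, of 678 codons (chr13:109686156-109686185), held 14.9% and 25.6%, and Pde4d-209, of 747 codons (chr13:108860166-108860195), held 16.7% and 5.82%. In replicate 1 their counts, 133 with a posterior SD of 27.7 and 178 with 26.6, lay within the error of the estimate, so their order there is uncertain. In replicate 2 Pde4d-201 had 201 counts (posterior SD 22.8) and Pde4d-209 54.6 (12.9). Pde4d-211, a processed transcript with no coding sequence, held 5.31% and 14.1%. Transcripts that encode the signature stood at 6.40 and 4.77 TPM for Pde4d as a whole.

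Pde1c had a pair of leading transcripts. Pde1c-206, of 603 codons, held 48.3% and 44.3%, and Pde1c-201, of 706 codons, held 42.8% and 42.5%. By the posterior mean Pde1c-201 led in replicate 2. All 8 Pde1c transcripts differ in length between the tables and M21, so the codon numbers are those of M21. The first coding bases are shown because the pair differ in how they begin.
Pde1c-206: ATGgcctacagtattcagaggaaatataag
Pde1c-201: ATGgagtctccaaccaaggaaattgaagaa
The pair shared 11 of these 30 bases. Those of Pde1c-206 span a splice junction, and those of Pde1c-201 lie at chr6:56361816-56361845.

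Pde1a and Pde3b were led by transcripts that encode no phosphodiesterase. In Pde1a, Pde1a-209, a processed transcript of 869 nucleotides with no coding sequence, held 55.3% and 50.5% of the TPM from only 89.1 and 57.4 counts. Transcripts that encode the signature stood at 1.73 and 1.25 TPM, that is 44.6% and 48.6% of the gene's TPM but 79.9% and 83.7% of its counts. Pde1a-205 and Pde1a-206 encode the same 545 codons from different start sites and could not be told apart well: Pde1a-205 had 140 and 229 counts with posterior SDs of 58.5 and 35.5, and Pde1a-206 had 169 and 56.6 with posterior SDs of 54.6 and 34.9. Pde1a-203, of 456 codons, held 12.7% and 5.99%.

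In Pde3b, Pde3b-203, a retained intron transcript of 719 nucleotides, held 58.6% and 56.0% of the TPM from 34.2 and 50.2 counts. Pde3b-201, of 1099 codons and the only transcript of the gene that encodes the signature, held 41.4% and 34.4% from 299 and 377 counts. Its level was 0.75 and 0.90 TPM. On the signature-encoding transcripts the log2 ratio of Pde3a to Pde3b was 2.70 ± 0.41 in place of 1.29 ± 0.59, and that of Pde1c to Pde1a 1.87 ± 0.08 in place of 0.76 ± 0.01. The ratio of Pde4d to Pde3a was 0.05 ± 0.08 in place of 0.32 ± 0.04, within its spread. By mean level the order of the 10 genes was the same on these transcripts, but not in each library. In replicate 1 Pde1c (6.56 TPM) lay above Pde4d (6.40), and Pde3b (0.75) lay below Pde5a (0.78). In replicate 2 Pde4d and Pde3a were equal at 4.77, above Pde1c at 4.38. The sum was 75.3 and 74.6 TPM.

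The remaining genes were led by signature-encoding transcripts. Pde8a-201, of 823 codons, held 92.1% and 100%. In the Pde2a entry Gm45837-201, the readthrough transcript of 961 codons, held 93.5% and 86.7%, and Pde2a-201, of 939 codons, held 6.48% and 13.3%. These share 2737 coding positions, and the posterior SDs of the count of Pde2a-201 were 75.5 and 115 on 274 and 605 counts. At the level of genes the posterior SD of the count was 0 for all 10. Exons of other genes overlap 3 members: Gm45837 overlaps Pde2a on the same strand, Gm28523 overlaps Pde3a on the opposite strand with 69 and 95 counts, and 4930447N08Rik overlaps Pde5a on the opposite strand. Whether the counting used strand is not stated in the labels or headers, so reads of the opposite strand cannot be told apart.

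**Figure D3:**
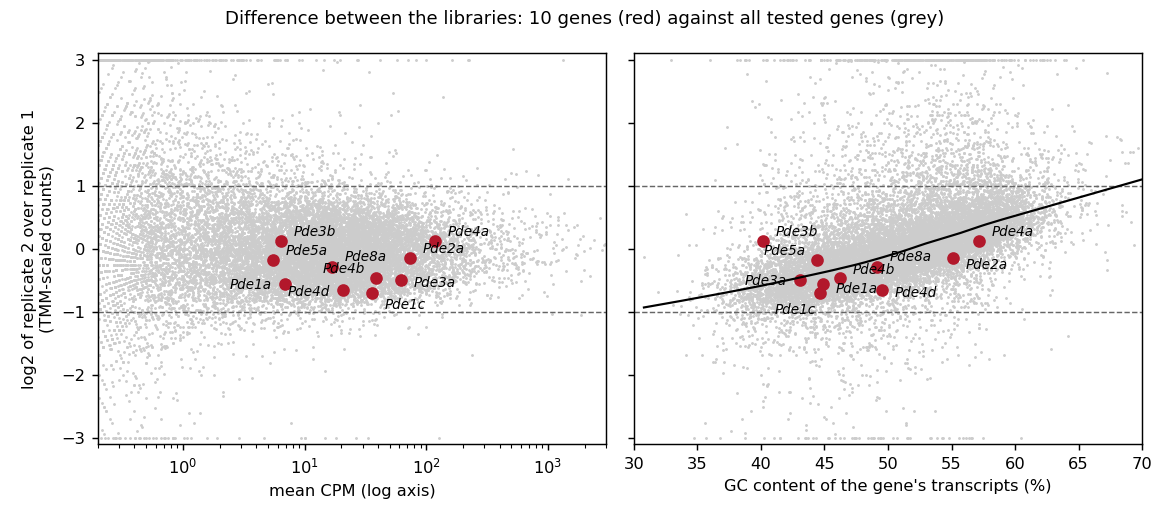
Log2 of replicate 2 over replicate 1 (TMM-scaled counts, vertical, values beyond 3 drawn at 3) against mean CPM, counts scaled to library size (left, log axis) and GC content of the transcripts in percent (right) for tested genes (grey) and the 10 phosphodiesterases (red). Dashed lines mark a 2-fold difference and the black line the trend with GC. All 10 genes lie between the dashed lines, and Pde3b lies farthest above the GC trend among them.

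Between the libraries none of the 10 genes was called different at a Benjamini-Hochberg adjusted p under 0.05 and a fold of at least 2, by an exact binomial test of counts scaled by TMM, a scaling that trims extreme genes. All 10 had the 20 counts over both libraries that the test asked for. Over the 16145 genes tested 11.7% were called, 8.18% higher in replicate 2 and 3.53% higher in replicate 1. At an unadjusted p under 0.05 there were 8 of the 10, against 69.9% of genes tested. By edgeR's exact test 0 of the 10 were called, against 2.54% of genes tested, with 0 of the 10 at an unadjusted p under 0.05. Its dispersion was estimated from these same 2 libraries taken as 1 group, so their difference was part of the noise. The count of 0 therefore does not show that the levels were alike. Each test compares 2 libraries of 1 group, with no replicate check.

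Without the fold limit 8 of the 10 passed, against 67.8% of genes tested. Higher in replicate 1 were 7 (34.9% of genes tested), and Pde4a was higher in replicate 2 (32.9%). Pde1c, at 44.2 and 27.3 CPM, was 1.62-fold higher in replicate 1 (95% interval 1.52 to 1.73, exact binomial adjusted p = 5.42e-53). Pde4d was 1.58-fold higher in replicate 1 (1.45 to 1.71, exact binomial adjusted p = 8.67e-28), and Pde1a 1.47-fold (1.28 to 1.70, exact binomial adjusted p = 1.42e-07). Pde3a and Pde4b were 1.41-fold and 1.38-fold higher in replicate 1, Pde8a 1.22-fold and Pde2a 1.11-fold. For Pde4a the fold was 1.08 toward replicate 2 (1.05 to 1.12, exact binomial adjusted p = 4.07e-06).

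Pde3b and Pde5a did not pass. Pde3b had a fold of 1.09 toward replicate 2 (95% interval 0.939 to 1.26) and Pde5a a fold of 1.13 toward replicate 1 (0.969 to 1.33). The 10 genes had a median log2 ratio (replicate 2 over 1) of -0.38, and all genes tested had -0.02, with quartiles of -0.38 and 0.39. With plain totals in place of TMM the median of all genes tested moved to 0.11. Without the fold limit Pde2a then no longer passed (log2 ratio -0.02, exact binomial adjusted p = 0.51), while Pde3b did (0.25, exact binomial adjusted p = 0.032). Pde2a also did not pass with the trend on transcript length removed (exact binomial adjusted p = 0.86). In TPM, Pde2a had a log2 ratio of 0.03, against -0.15 in scaled counts, so its direction depends on the scale. Pde4a and Pde3b, higher in replicate 2 in scaled counts, had log2 ratios of -0.24 and -0.03 in TPM rescaled without the mitochondrial genes. On that scale each of the 10 genes was lower in replicate 2. Pde1a, at -1.15, and Pde1c, at -1.14, then differed by more than 2-fold, and no test was run on that scale.

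The difference between the libraries moved with GC content over all genes, as the plot of ratios against GC shows. Pde4a, at 57.2% GC, and Pde2a, at 55.1%, lie at its upper end and Pde3b, at 40.2%, at the lower. With that trend removed the log2 ratio was -0.23 for Pde4a, 0.22 for Pde5a and 0.70 for Pde3b, against 0.12, -0.18 and 0.12 before. Pde3a then stood at -0.04 against -0.50, Pde1c at -0.31 against -0.70 and Pde4d at -0.52 against -0.66. By the exact binomial test without the fold limit, Pde3a (adjusted p = 0.36), Pde1a (0.13) and Pde8a (0.10) no longer passed, while Pde3b did (1.52e-10). The GC content of a gene is the mean over its transcripts weighted by TPM. For Pde3b most of that weight lies on Pde3b-203, which held only 10.3% and 11.6% of its counts, so its corrected ratio is uncertain. Which of the 10 genes differed most thus depends on the scale and correction. It was Pde1c in scaled counts, and Pde1a in TPM (-0.59) and in TPM rescaled without the mitochondrial genes (-1.15). It was Pde3b with the GC trend removed and Pde4d with the trend on transcript length removed (-0.59). The part of GC content in these ratios was not tested further.

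**Figure D4:**
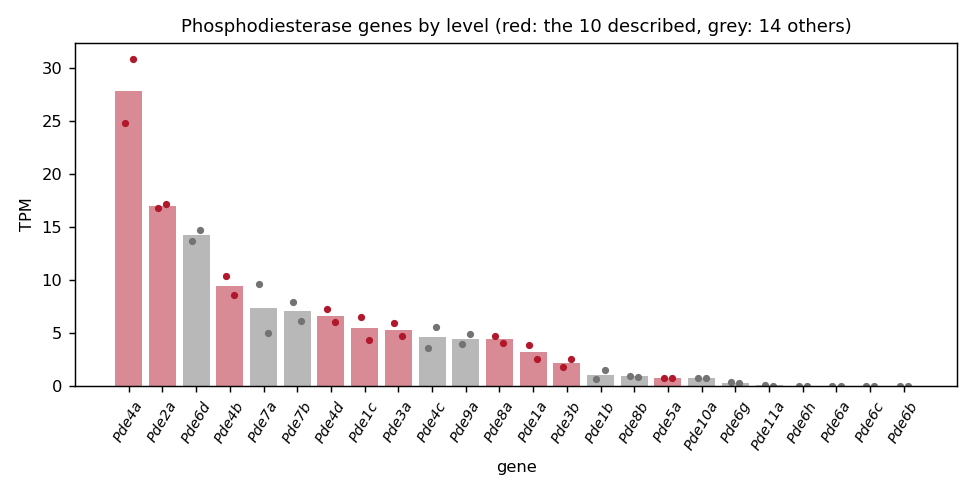
Mean TPM (bars) and the value in each library (points, replicate 1 left) of the 24 phosphodiesterase genes listed, with the 10 described in red. By mean, Pde6d lies between Pde2a and Pde4b, and Pde7a and Pde7b lie between Pde4b and Pde4d. The genes from Pde1b rightward have means of 1.11 TPM or less.

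Of the other 14 phosphodiesterase genes 5 were detected at 1 TPM or more in both libraries. Pde7a and Pde7b, for cAMP-specific enzymes, stood at 9.67 and 5.05 TPM and at 7.98 and 6.15 TPM. Pde4c, the remaining PDE4 gene, stood at 3.66 and 5.64 TPM, and Pde9a, for a cGMP-specific enzyme, at 4.01 and 4.98 TPM. Pde9a was thus above Pde5a in both libraries. Pde6d stood at 13.7 and 14.8 TPM; it encodes a carrier of prenylated proteins and no catalytic site. Pde1b, the third PDE1 gene, stood at 0.71 and 1.51 TPM. Pde6b and Pde6c, of photoreceptors, had 0 counts in both libraries, which allows up to 0.0555 and 0.0464 CPM. Of the 14, 10 had enough counts for the test and none was called, against 11.7% of all genes tested. The 10 described genes held 74.8% and 76.6% of the TPM of the 21 listed phosphodiesterase genes that encode the signature.

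Among 18 genes for anchors, partners and activators of these enzymes, 15 were detected in both libraries. Of the 18, 1 was called, against 11.7% of all genes tested. That was Pik3r5, a regulatory subunit of PI3K gamma, at 0.50 and 1.52 TPM, 2.18-fold higher in replicate 2 (95% interval 1.76 to 2.73, exact binomial adjusted p = 3.26e-13). Pik3r5 is known from leukocytes, and of 8 macrophage and leukocyte markers 4 were called higher in replicate 2 and 4 were not called. The other PI3K gamma genes listed, Pik3cg and Pik3r6, had log2 ratios of 0.08 and 0.15 and were not called. The part of leukocytes in the difference of Pik3r5 was not tested. Pde4dip, for an anchor of PDE4D, stood at 138 and 139 TPM, far above Pde4d itself. Hspb6, a small heat shock protein that binds PDE4, stood at 680 and 989 TPM and Calm3, a calmodulin gene, at 72.0 and 85.5 TPM.

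The genes on either side of the phosphodiesterases in the pathway were measured as well. Over all genes tested 11.7% were called, so counts of none in lists this short do not show that levels were alike. Of 11 genes for cAMP synthesis all 11 were detected and none of those tested was called, with Gnas, the stimulatory G protein, at 415 and 572 TPM, Gnai2, an inhibitory one, at 134 and 163, and Adcy6, an adenylyl cyclase of heart, at 46.7 and 46.6. Of 6 genes for cGMP synthesis 5 were detected and none was called, led by the natriuretic peptide receptors Npr2 (22.0 and 30.1 TPM) and Npr1 (16.6 and 18.4 TPM) and by Nos3, the endothelial nitric oxide synthase (9.19 and 16.2 TPM). Of 15 effectors and exporters 13 were detected and none of 14 tested was called. Popdc2, a cAMP-binding membrane protein, stood at 260 and 368 TPM, Prkaca, a catalytic subunit of protein kinase A, at 116 and 126, and Prkar1a, a regulatory subunit, at 86.8 and 89.7.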

How the data were processed

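RNA of 2 mouse heart libraries was measured by paired poly(A) sequencing with reads of 76 nucleotides, labelled as stranded. The authors deposited tables of genes and transcripts on mm10 with GENCODE M4, per the accompanying notes; the notes, labels and headers name no program, version or strand setting. Expected counts, deposited per gene and transcript, estimate its fragments, per the file headers. The deposited TPM, as maximum likelihood and posterior mean, and the deposited FPKM divide them by effective length, per the file headers. Each transcript's percent of its gene was also deposited by the authors, per the file headers. The tables give posterior SDs of counts, TPM bounds and lengths as well.

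Names, coordinates and sequences came from GENCODE M21 on GRCm38, matched by identifier (42462 of 43346 genes). Of the 68 transcripts 1 had no M21 entry and 13 differ in length. Spike-in and numbered entries stayed out of the tests, and 98.3% of counts lay on genes in each library. Totals were 57464573 and 62912053, and 3 counts stand for 0.0555 and 0.0464 CPM. After rounding, the expected counts were tested with a two-sided exact binomial test, taken as 2 times the smaller tail, given TMM-scaled totals (factors 0.957 and 1.04, edgeR 4.0.16 in R 4.3.3), with Benjamini-Hochberg adjustment over genes with at least 20 counts. edgeR's exact test (common biological coefficient of variation 0.275) and DESeq2 1.42.0 size factors were alternatives. Trends with GC content and length were lowess fits (fraction 0.3). The test was tested on simulated data. Python 3.11.15, pandas 2.3.3, scipy 1.17.1, statsmodels 0.14.6, Biopython 1.88 and matplotlib 3.10.9 were used.

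The genes and lists were chosen with earlier results of these data known. All 10 genes are named, transcripts with a share of at least 10% in either library, other phosphodiesterases averaging 1 TPM or more, and of the other pathway lists the 3 highest plus up to 3 called. Pde6b, Pde6c, Pde6g, Pde6h, Xist and the 4 lung markers were named after their values were seen. Restricting levels to signature-encoding transcripts was chosen after seeing the data. The lists of junctions and contigs on mm9 name no library and were not used here.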

Additional observations from a re-analysis of the deposited data

How the results depend on the processing

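The summed level was 82.5 TPM over both libraries and 82.0 to 83.1 with a replicate left out; it was 83.3 by posterior mean TPM, 182 without mitochondrial genes and copies, and 74.9 on signature-encoding transcripts. Detected genes numbered 9 at 1 TPM, 10 at 0.5 and 4 at 5 TPM. By expected counts the cAMP, both-substrate and cGMP shares of the sum of the 10 genes were 50.7%, 47.9% and 1.44%. The cGMP share of that sum was 0.936% by posterior mean and 1.04% on signature-encoding transcripts. The order kept 6 to 10 of its 10 places with a replicate left out. None of the 10 genes was called with total counts, DESeq2 size factors, no count filter, GC or length trend removed, or edgeR's exact test, which called 410 of all genes tested against 1890; without the fold limit 8 were called. Some ratios changed sign: with the GC trend removed Pde4a moved to -0.23 and Pde5a to 0.22, with the length trend removed Pde5a moved to 0.079, and by counts not divided by length the log2 ratio of Pde4d to Pde3a was -1.60, since Pde3a has the longer transcript. In the other cases the cause was not tested. The low counts behind Pde3b-203 (34.2 and 50.2) and Pde1a-209 (89.1 and 57.4) limit their shares. No paired analysis was possible because there is 1 group.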
